A study of Bos taurus with 15 samples.

Results

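Transcripts of 7 genes that mark T cells and natural killer (NK) cells were followed in the endometrium of Japanese Black cows. GNLY, GZMB and NCR1 belong to the cytotoxic machinery of these cells, and CD2, CD3D, CD5 and LCK to the surface and signalling apparatus of T cells. A probe was taken where the array named the gene, gave its symbol in parentheses or spelled out its full name, which found 9 of the 15208 probes other than controls, for 7 of the 6793 gene symbols that could be assigned. GNLY and GZMB had 2 probes each and the other genes 1 each. No measured value was used to find these probes, but the 7 genes were chosen with earlier results of these data known. Of 2 probes of a gene, the one with the higher mean log2 signal is called the first. It gave the values below unless the second is named.

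The tissue was caruncular endometrium, the part of the uterine lining to which the ruminant placenta attaches, and the study asked how chemokines and their receptors act there around the time of maternal recognition of pregnancy. Cows labelled as cyclic and non-pregnant were sampled on day 15 (NP15, n = 4) and day 18 (NP18, n = 4), and pregnant cows on day 15 (P15, n = 3) and day 18 (P18, n = 4). The methods count days from artificial insemination and tell pregnant from non-pregnant cows by whether fetal trophoblast was seen in the opened uterus. Each cow gave 1 one-color array of total RNA, and no cow was described as treated otherwise. Day 1 was the day of insemination, and the age of the cows was not analyzed here. Because the RNA came from whole tissue, fewer cells of a type and less RNA per cell cannot be told apart.

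Cytotoxic lymphocytes kill by releasing granules that hold perforin, granzymes and granulysin, and NK cells choose their targets through activating receptors such as the one encoded by NCR1. T cells recognize antigen through a receptor that signals through the CD3 chains, of which CD3D is one, and the kinase encoded by LCK, while CD2 and CD5 are surface proteins that tune adhesion and activation. In the ruminant uterus, lymphocytes lie in and beneath the epithelium, and their number and activity during early pregnancy have been linked to tolerance of the conceptus.

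The probe sequences of the 3 genes detected on nearly all arrays are shown, as the scanner files give them, in lower case with no part marked.
GNLY: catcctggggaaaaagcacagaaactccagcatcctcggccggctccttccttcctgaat
GZMB: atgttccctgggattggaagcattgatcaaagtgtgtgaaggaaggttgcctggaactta
CD2: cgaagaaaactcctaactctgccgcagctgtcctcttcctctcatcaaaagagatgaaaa
Every member probe had 60 bases, and the GC content was 55% for GNLY, NCR1 and LCK, 45% for GZMB, CD2 and CD3D, and 48.3% for CD5. Both GNLY probes carried one and the same sequence, and so did both GZMB probes, so each pair was a repeated measurement of 1 target and not evidence from a second site. No other probe of the array shared 20 bases with a member probe. In cattle, granulysin is one of several closely related NK-lysin genes, so the GNLY signal may have been shared among them. The probes were not placed on a genome here.

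Signals are given in array medians, that is, as the processed signal of a spot relative to the middle value over that array, and levels are compared between groups for one probe and not between probes. The array software marked spots that were well above background. GNLY and GZMB were well above background on all 15 arrays and CD2 on 14, all but P18 replicate 3. CD5 reached that mark on 8 arrays (7 of day 15 and 1 of day 18), CD3D on 6 (4 and 2), LCK on 6 (6 and 0) and NCR1 on 5 (5 and 0). The lowest signal marked as well above background was 9.60 to 28.3 on the day 15 arrays and 53.5 to 75.03 on the day 18 arrays. For weak probes, day 18 therefore gave only a limit. All 9 member probes were among the 13164 probes tested, which needed this mark on at least 3 arrays.

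Among general T cell transcripts, CD3E, CD3G, CD247 and CD8A were well above background on all 15 arrays, whereas CD4 was on 1, CTLA4 on 1, and CD28, ICOS, CD40LG and FOXP3 were on 0. Of 8 endometrial markers, HOXA10, PGR, OXTR, MSX1, FOXL2 and SERPINA14 were detected on all 15 arrays, ESR1 on 9 and LGALS9 on 4. Among the 15 arrays, each slide and each scan day held 1 group only, on day 15 as on day 18. Differences between groups are therefore also differences between slides and scan days, and scan day and group cannot be told apart. In a limma fit that took scan day as a random block, 0 of the 9 member probes and 0 genes of the wider T cell and NK cell lists were called between P18 and NP18 or between P18 and P15. P15, NP18 and P18 had 1 scan day each, so only the NP15 arrays, of 3 scan days, informed the block correlation (0.336). Calls lost under this block, here and below, therefore do not separate scan day from group, and nothing more is read from them.

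Limma called none of the 9 member probes in any comparison, with a call defined by a Benjamini-Hochberg adjusted p below 0.05 over all tested probes and a fold change over 2. Of all tested probes, 0.798% were called between P15 and NP15, 5.75% between P18 and NP18, 2.72% for the difference between these, 7.16% between NP18 and NP15, and 11.9% between P18 and P15. At an unadjusted p below 0.05, limma counted 0, 4, 2, 3 and 2 of the 9 probes in these comparisons, and 14.9, 24.1, 19.3, 29.3 and 32.6% of all tested probes passed that limit. The 9 probes hold GNLY and GZMB 2 times each, and by gene the counts were 0, 3, 1, 2 and 1 of 7. The 3 genes on day 18 were GNLY, NCR1 and CD5, and NCR1 and CD5 had no P18 spot well above background. The methods' t-test counted 0, 2, 0 and 0 of the 9 probes without adjustment and over a 2-fold change in the 4 comparisons of 2 groups, the 2 being the GNLY probes on day 18, and it counted 0 after adjustment. The pregnant groups of both days and the cyclic groups of both days are shared between comparisons, so the comparisons of one day with the other are not independent of those within a day.

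Granulysin, a membrane-damaging protein of cytotoxic granules, differed most among the 7 genes between P15 and NP15 and between P18 and NP18. Its signal was 1.99, 0.292, 1.28 and 4.93 in NP15 and 0.474, 0.146 and 0.845 in P15. It was 0.145, 0.842, 0.112 and 0.274 in NP18 and 3.19, 3.58, 1.1 and 0.463 in P18. On day 15 the groups overlapped, with 3 of the NP15 arrays above all P15 arrays, and on day 18, 3 of the 4 P18 arrays lay above all NP18 arrays and the fourth fell within their range.

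The mean log2 signal of GNLY was highest in P18 (0.64 ± 1.39, SD, n = 4) and NP15 (0.47 ± 1.70, n = 4) and lower in P15 (-1.36 ± 1.29, n = 3) and NP18 (-2.01 ± 1.30, n = 4). The neighbors P18 and NP15, and P15 and NP18, were closer together than the SD within either group. The log2 difference of P18 from NP18 was 2.65 (SE 0.90, 95% confidence interval 0.73 to 4.57, limma adjusted p = 0.0916). On day 15, P15 minus NP15 was -1.83 (SE 0.97, interval -3.91 to 0.24, adjusted p = 0.395). The difference between these was 4.48 (SE 1.32, interval 1.66 to 7.31, adjusted p = 0.0793).

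In exact two-sided permutation tests of single genes, GNLY gave p = 0.0571 for P18 against NP18 and p = 0.229 for P15 against NP15, where the smallest possible values were 0.0286 and 0.0571. In cyclic cows, NP18 minus NP15 was -2.48 (SE 0.90, adjusted p = 0.0851 by limma), and in pregnant cows, P18 minus P15 was 2.0 (SE 0.97, adjusted p = 0.166). No GNLY estimate passed the limit, although its intervals for P18 against NP18, for NP18 against NP15 (-4.40 to -0.56) and for the difference between the days did not include 0. Without NP15 replicate 2, the cow with the lowest GNLY signal in its group, the difference between the days was 5.23 (adjusted p = 0.0480) and NP18 minus NP15 was -3.23 (adjusted p = 0.0410), both then past the limit. Other choices made the GNLY values smaller. The difference between the days was 3.08 with array weights and 3.78 without P15 replicate 2, and NP18 minus NP15 was -1.04 with array weights and -1.87 without NP15 replicate 4. P15 minus NP15 was -0.43 with array weights, -1.13 without P15 replicate 2 and -1.22 without NP15 replicate 4, and P18 minus P15 was 1.30 without P15 replicate 2.

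**Figure D1:**
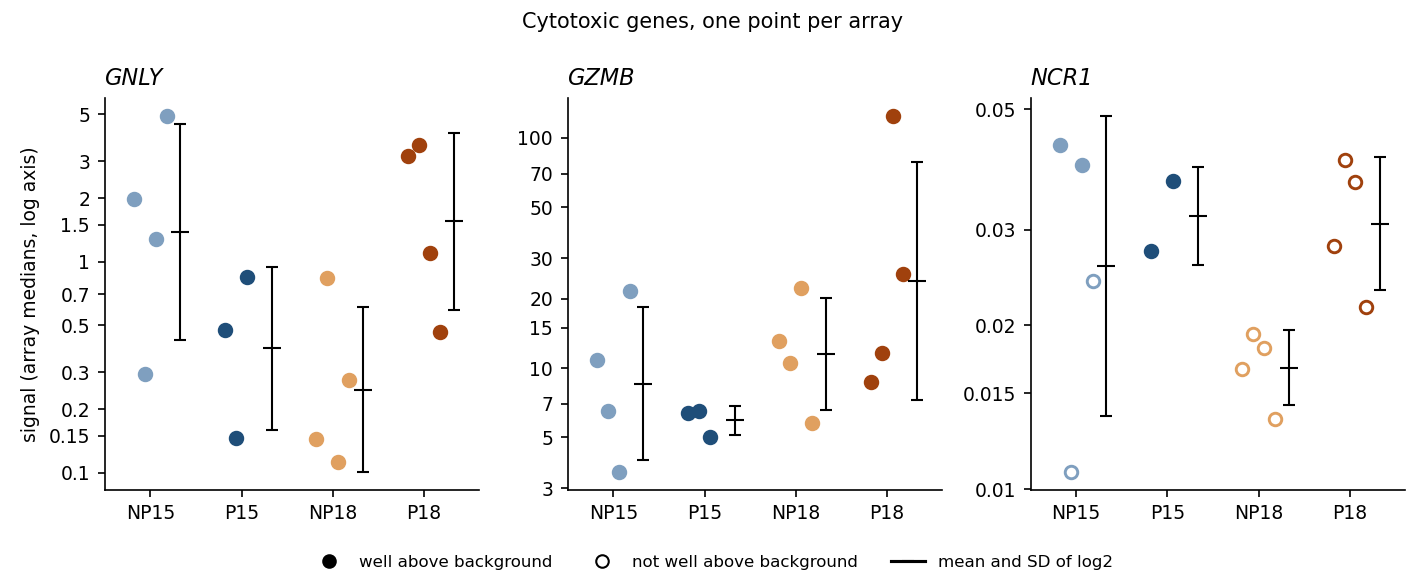
Signal of GNLY, GZMB and NCR1 in each array (y, array medians, log axis, one panel per gene with its own scale) in the 4 groups (x), with filled points well above background, open points not, and the mean and SD of log2 signals beside them. GNLY and GZMB spread over several-fold within most groups, the highest GZMB point is P18 replicate 3 at 125, and no NCR1 spot of day 18 is well above background.

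Granzyme B, a protease that starts apoptosis in target cells, was measured at 10.8, 6.54, 3.54 and 21.5 in NP15 and at 6.38, 6.52 and 5.04 in P15. On day 18 it was 13.2, 10.5, 22.3 and 5.75 in NP18 and 8.75, 11.7, 125 and 25.5 in P18. The P15 arrays lay within the range of NP15 and differed among themselves by 1.30-fold, against 6.08-fold in NP15, 3.88-fold in NP18 and 14.3-fold in P18. A single cow, P18 replicate 3, stood far above the next highest value of its group, 25.5.

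The order of mean log2 signals of GZMB was P18 (4.58 ± 1.72, SD, n = 4), NP18 (3.53 ± 0.81, n = 4), NP15 (3.10 ± 1.1, n = 4) and P15 (2.57 ± 0.21, n = 3), and each step in this order was smaller than the larger of the 2 SDs. P18 minus NP18 was 1.05 (SE 0.72, 95% confidence interval -0.49 to 2.59, limma adjusted p = 0.400), and it was 0.25 without P18 replicate 3. P15 minus NP15 was -0.53 (SE 0.78, interval -2.20 to 1.14, adjusted p = 0.802). The difference between the days was 1.58 (SE 1.06, adjusted p = 0.445), and it was 0.78 without P18 replicate 3 and 0.69 with array weights.

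All 4 P18 arrays exceeded all 3 P15 arrays in GZMB, a pattern without overlap that was also seen in 42.9% of all tested probes in that comparison. Before division by the array median, the processed GZMB signals overlapped, at 3142 to 4380 in P15 and 4116 to 50856 in P18. The array medians were 545 to 686 in P15 and 407 to 563 in P18, and their part was not tested. The log2 difference of P18 from P15 was 2.01 (SE 0.78, limma adjusted p = 0.0897). The exact permutation p was 0.0571, the smallest that 4 against 3 arrays can give. Without P18 replicate 3 the difference was 1.21, and without P18 replicate 1 it was 2.49 with an adjusted p of 0.0467, past the limit. NP18 minus NP15 was 0.43 (SE 0.72, adjusted p = 0.734).

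NCR1 encodes the activating receptor NKp46, which is nearly confined to NK cells and related innate lymphocytes. Its signal was 0.0429, 0.0108, 0.0395 and 0.0242 in NP15, and 0.0275 and 0.0368 in P15, where the spot of replicate 2 carried an outlier mark and was left out. On day 18 it was 0.0166, 0.0193, 0.0182 and 0.0134 in NP18 and 0.0281, 0.0403, 0.0367 and 0.0217 in P18. All P18 values lay above all NP18 values, but none of these 8 spots was well above background, and therefore no fold is given.

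The processed NCR1 signals before division by the array median were 10.9 to 15.2 in NP18 and 12.2 to 22.6 in P18, and the array medians themselves were 790 to 838 and 407 to 563. Groups without overlap were found for 16.3% of all tested probes on day 18. The exact permutation p was 0.0286, the smallest possible, and the limma adjusted p was 0.174. The part of the array medians in this order was not tested. On day 15, 2 of 4 NP15 spots and 3 of 3 P15 spots, the marked one included, were well above background, and P15 minus NP15 was 0.30 (SE 0.46, interval -0.69 to 1.30, adjusted p = 0.808).

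The 2 probes of one sequence gave a measure of the error between spots of one array, which leaves out RNA extraction, labelling and hybridization. The first probe was the one with the higher mean log2 signal, so ratios mostly above 1 follow from that choice. The ratio of the first to the second GNLY probe was 0.916 to 1.39 (median 1.26) over the 15 arrays, and for GZMB it was 1.07 to 1.89 (median 1.22), with the next highest ratio at 1.26 after 1.89 in NP15 replicate 4. Over 80 pairs of tested probes with a shared sequence, the median SD of this log2 difference was 0.16, against 0.21 for GNLY and 0.18 for GZMB. The pooled SD between arrays of one group, which includes those steps as well as the cows, was 1.44 for GNLY and 1.15 for GZMB on the log2 scale. The second GNLY probe gave 2.36 (SE 0.83, limma adjusted p = 0.104) for P18 minus NP18, and the second GZMB probe gave 2.07 (SE 0.77, adjusted p = 0.0779) for P18 minus P15.

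Among the 1000 tested probes nearest in mean level, 98.1% had a smaller pooled SD within groups than GNLY and 98.9% had a smaller one than GZMB, where the median SDs were 0.48 and 0.34. Arrays of one group therefore differed more in these 2 transcripts than in most others of like level. This spread includes RNA handling and hybridization besides the cows, and the 4 NP15 arrays came from 3 slides and 3 scan days. NCR1 (21.4%), CD2 (58.4%), CD3D (39.4%) and CD5 (4.80%) were not at the upper end, with SDs of 0.57, 0.59, 0.60 and 0.34. LCK, with an SD of 0.25, was below all 1000.

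**Figure D2:**
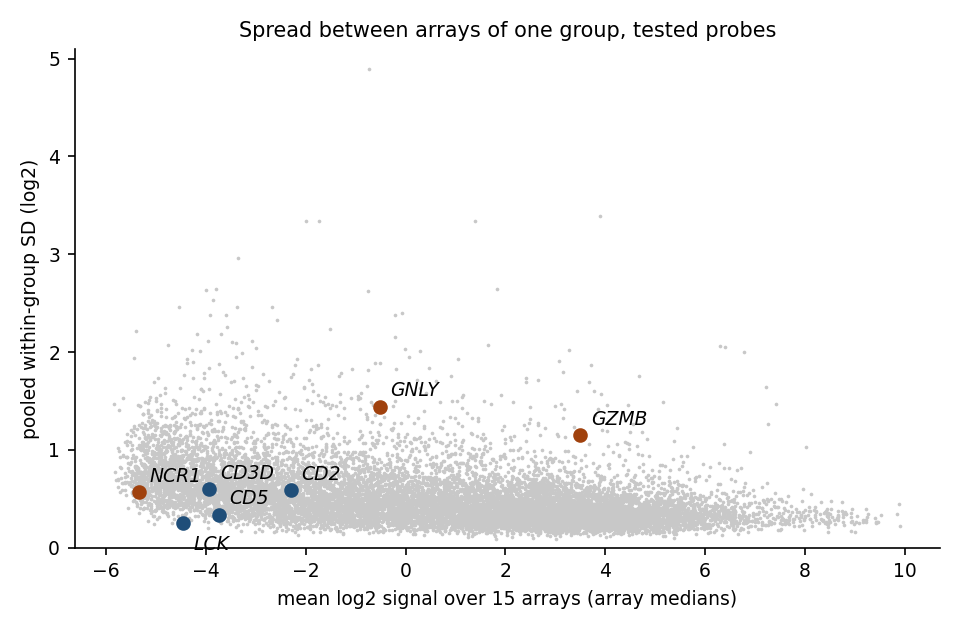
Pooled SD of log2 signals within groups (y) against mean log2 signal over 15 arrays (x, array medians) for the 13164 tested probes in grey, with cytotoxic members in brown and T cell members in blue. GNLY at 1.44 and GZMB at 1.15 lie in the upper fringe at their level, and the T cell members lie at 0.60 or below.

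GNLY and GZMB did not follow each other across cows. Over the 15 arrays, the Pearson correlation of their log2 signals was 0.098 (Spearman 0.021), and -0.14 after group means were removed, and GNLY and NCR1 gave 0.67 over 14 arrays and 0.54 within groups. These are descriptions of arrays that share their group and scan day, and NCR1 was near background on most of them.

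CD2, an adhesion molecule of T and NK cells, was the one T cell member with a usable level in all groups. Its signal was 0.291, 0.205, 0.256 and 0.304 in NP15 and 0.154, 0.201 and 0.186 in P15. On day 18 it was 0.104, 0.155, 0.145 and 0.519 in NP18 and 0.225, 0.220, 0.130 and 0.198 in P18. All P15 arrays lay below all NP15 arrays, and on day 18 the P18 values lay inside the range of NP18, whose replicate 4 stood far above the next highest value, 0.155. Before division by the array median, the processed CD2 signals of day 15 overlapped, at 75.7 to 119 in NP15 and 105 to 116 in P15. The array medians were 315 to 409 in NP15 and 545 to 686 in P15. Their part in the order of the scaled values was not tested.

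The log2 difference in CD2 was -0.54 on day 15 (SE 0.42, 95% confidence interval -1.44 to 0.35, limma adjusted p = 0.581), and groups without overlap were found for 15.6% of all tested probes there. The exact permutation p was 0.0571, the smallest possible for 4 against 3 arrays. On day 18 the difference was 0.019 (SE 0.39, interval -0.81 to 0.85, adjusted p = 0.984), and it was 0.51 without NP18 replicate 4. By mean log2 signal the order was NP15 (-1.94 ± 0.26, SD, n = 4), P18 (-2.40 ± 0.37, n = 4), NP18 (-2.42 ± 1.02, n = 4) and P15 (-2.48 ± 0.20, n = 3), and the last 3 were closer than any of their SDs.

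CD3D encodes the delta chain of the CD3 complex. Its signal was 0.137, 0.0405, 0.0293 and 0.0408 in NP15 and 0.0877, 0.0512 and 0.0524 in P15. On day 18 it was 0.0950, 0.0890, 0.0566 and 0.0612 in NP18 and 0.0635, 0.102, 0.0828 and 0.0721 in P18. The groups overlapped on both days, and NP15 replicate 1 stood above the rest of its group, the next being 0.0408. P15 minus NP15 was 0.28 (SE 0.43, interval -0.63 to 1.20, limma adjusted p = 0.806) and P18 minus NP18 was 0.10 (SE 0.40, interval -0.74 to 0.94, adjusted p = 0.907). Because 1 of 4 spots in each day 18 group was well above background, the day 18 value rests mainly on spots near background. NP18 minus NP15 was 0.54 (adjusted p = 0.395), with 2 of 4 and 1 of 4 spots well above background in NP15 and NP18, and it was -0.17 with normexp background correction. Without NP15 replicate 1, one of the spots above background, the adjusted p was 0.0361, and nothing is read from it.

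CD5, a receptor that dampens T cell receptor signals, was 0.0847, 0.0778, 0.0663 and 0.0544 in NP15 and 0.0717, 0.102 and 0.0627 in P15. On day 18 it was 0.0851, 0.0461, 0.0549 and 0.0521 in NP18 and 0.135, 0.0959, 0.101 and 0.0775 in P18. The day 15 groups overlapped, and on day 18, 3 of the 4 P18 arrays lay above all NP18 arrays. P15 minus NP15 was 0.14 (SE 0.27, interval -0.44 to 0.73, limma adjusted p = 0.855).

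The day 18 comparison of CD5 had the lowest adjusted p of the 7 genes in that comparison (0.0747), but only 1 NP18 spot and no P18 spot was well above background, so no fold is given. The processed signals before scaling were 36.4 to 68.4 in NP18 and 41.1 to 63.6 in P18. These ranges overlapped widely, whereas the array medians were 790 to 838 in NP18 and 407 to 563 in P18. The part of the array medians in the order of the scaled values was not tested.

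LCK encodes the kinase that passes on the first signal of the T cell receptor. Its signal was 0.0553, 0.0568, 0.0661 and 0.0513 in NP15 and 0.0410, 0.0432 and 0.0523 in P15, with 4 of 4 and 2 of 3 spots well above background. On day 18 it was 0.0336, 0.0432, 0.0422 and 0.0326 in NP18 and 0.0623, 0.0350, 0.0367 and 0.0456 in P18, with no spot well above background. P15 minus NP15 was -0.34 (SE 0.23, interval -0.82 to 0.15, limma adjusted p = 0.514), and P15 overlapped with NP15 in 1 of 3 arrays. All NP18 values lay below all NP15 values (exact permutation p = 0.0286, the smallest possible, limma adjusted p = 0.0769), as did 13.1% of all tested probes in one or the other direction, and a fold is not given because no NP18 spot was well above background. Before scaling, the processed LCK signals had the opposite order, 19.5 to 22.6 in NP15 and 26.4 to 35.3 in NP18, on arrays with medians of 315 to 409 and 790 to 838.

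**Figure D3:**
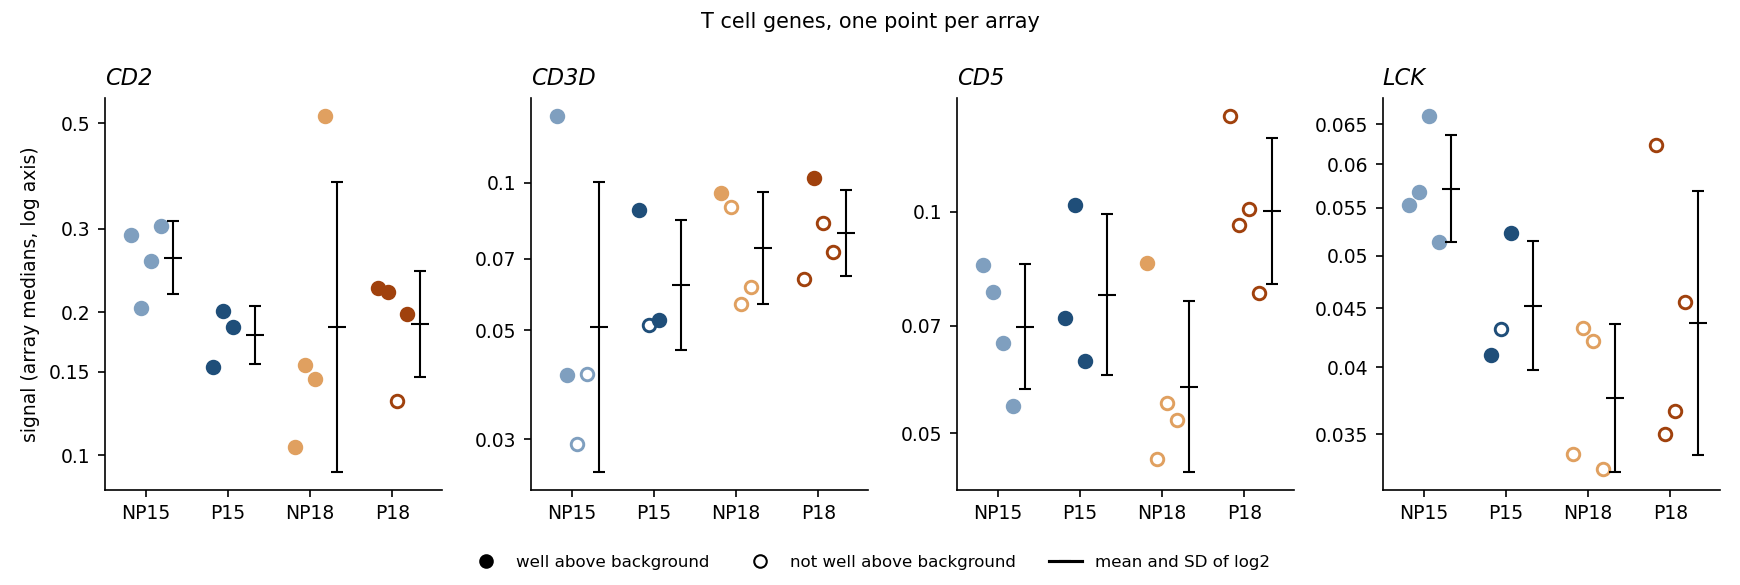
Signal of CD2, CD3D, CD5 and LCK in each array (y, array medians, log axis, one panel per gene with its own scale) in the 4 groups (x), with filled points well above background, open points not, and the mean and SD of log2 signals beside them. CD2 is filled on 14 of 15 arrays, most CD5 spots and all LCK spots of day 18 are open, and NP18 replicate 4 is the highest CD2 point at 0.519.

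Set apart by role, the 3 cytotoxic genes had a median log2 difference of 1.05 on day 18 with 3 of 3 positive, and -0.53 on day 15 with 1 of 3 positive. The 4 T cell genes had medians of 0.16 with 4 of 4 positive and -0.097 with 2 of 4 positive. On day 18, the sign turned under 8 of 23 alternatives for CD2, 3 for CD3D and 1 for LCK. Over all tested probes the medians were 0.073 and -0.056. None of these differences passed the test, and the positive values of NCR1, CD5 and LCK on day 18 come from spots near background. For the difference between the days, the medians were 1.58 for the cytotoxic and 0.56 for the T cell genes, against 0.11 over all tested probes. Each cytotoxic median here is the GZMB value. Without P18 replicate 3, GZMB was 0.25 on day 18 and 0.78 for the difference between the days.

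**Figure D4:**
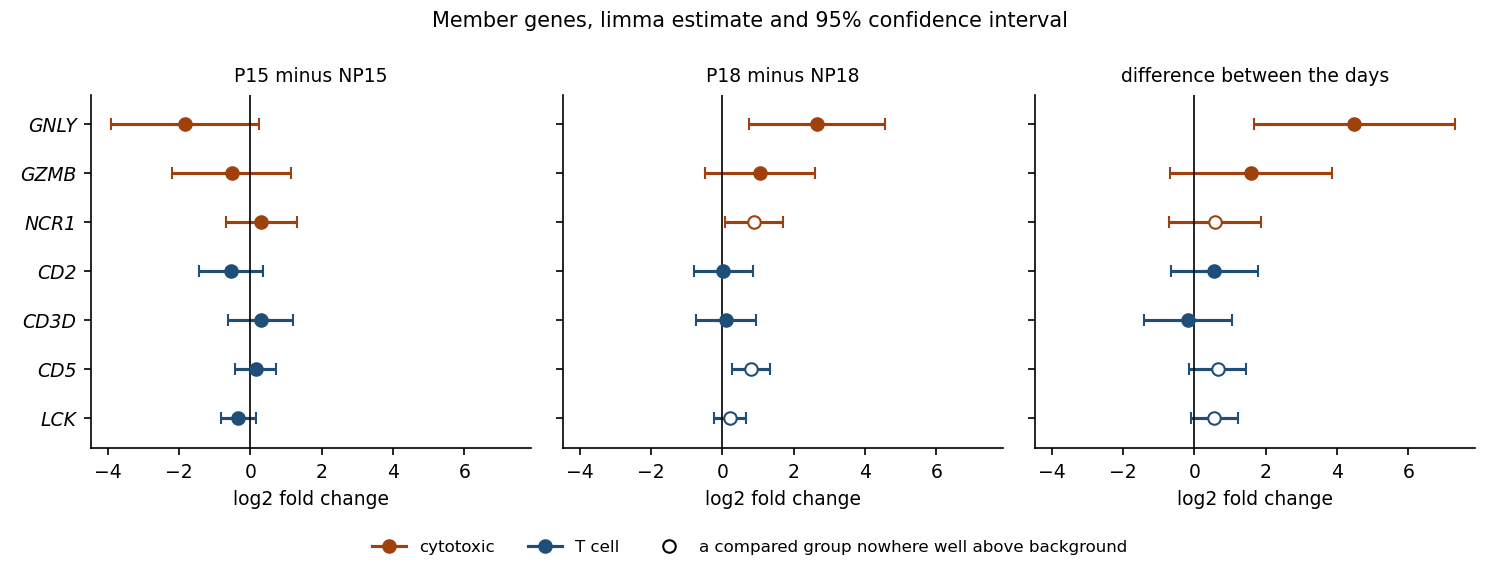
Log2 fold change with its 95% confidence interval from limma (x) for the 7 genes (y) between P15 and NP15, between P18 and NP18, and for the difference between the days, with open points where one of the compared groups was nowhere well above background. GNLY has opposite signs on the 2 days, -1.83 and 2.65, and no gene passes the limit after adjustment.

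A wider list of T cell receptor, coreceptor and signalling genes had 19 of 43 genes on the array, of which 13 were tested. This list and those below were chosen with earlier results of these data known, so their counts and medians beside all tested probes are descriptions. On day 18, 2 of 13 rose in P18 and 0 fell, with 3.65% of all tested probes called higher, and the median log2 difference of the list was 0.60 against 0.073 over all tested probes. Of the 13, 10 were well above background on at least 12 arrays. The array medians were 790 to 838 in NP18 and 407 to 563 in P18, and their part in the values of dim probes was not tested. CD69, an early activation marker of lymphocytes, was 0.428, 0.448, 0.354 and 0.460 in NP18 and 1.53, 3.31, 3.38 and 1.19 in P18, without overlap. Its difference was 2.34 (SE 0.41, limma adjusted p = 0.00373). SLAMF1, a costimulatory receptor, was called higher in P18 (adjusted p = 0.0269), with 0 of 4 NP18 and 2 of 4 P18 spots well above background. Its fold was 1.38 with NP18 spots raised to at least the lowest signal so marked on their array. That is not a lower limit, because P18 spots without the mark were kept as measured.

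CD3E, CD3G and CD247, further chains of the T cell receptor complex, were not called. CD3E was 0.763 to 1.08 in NP18 and 0.929 to 2.41 in P18, a log2 difference of 0.68 (SE 0.38, limma adjusted p = 0.301). CD247 differed by 0.41 (SE 0.28, adjusted p = 0.403), CD3G by 0.44 (SE 0.39, adjusted p = 0.529) and the cytotoxic coreceptor gene CD8A by -0.21 (SE 0.27, adjusted p = 0.680). On day 15, 0 of 13 genes were called, with 1 at an unadjusted p below 0.05 and 1 by the methods' t-test without adjustment. CD69 and SLAMF1 were also called between P18 and P15, at 1.98 (adjusted p = 0.0103) and 1.56 (adjusted p = 0.0146), and both calls were lost without P15 replicate 2, with the scan day block and with adjustment of the methods' t-test, that of SLAMF1 also with normexp. Limma called 0 of 13 genes between NP18 and NP15, with 2 at an unadjusted p below 0.05 and 1 by the methods' t-test without adjustment. Of all tested probes, 14.9% on day 15 and 29.3% between NP18 and NP15 passed the unadjusted limit by limma, and 7.58% were called higher between P18 and P15.

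Probes for T cell receptor chains formed a list that was added later than the others. Of 20 such probes 9 were tested, and limma called 0 in all comparisons, with 5 of 9 at an unadjusted p below 0.05 on day 18 and 1 of 9 on day 15, and 0 by the methods' t-test. Among all tested probes, 24.1% on day 18 and 14.9% on day 15 passed that unadjusted limit. The brightest of them, for the constant region of the alpha chain (LOC511486), was 3.03 to 4.08 in NP18 and 5.04 to 10.3 in P18, without overlap, at a log2 difference of 0.89 (SE 0.29, adjusted p = 0.0776).

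A list of NK cell and cytotoxic genes had 20 of 41 genes on the array and 17 tested. On day 18, 3 of 17 rose in P18 and 0 fell, with 3.65% of all tested probes called higher, and the median log2 difference was 0.87, with 16 of 17 positive, against 0.073 over all tested probes. Of the 17, 11 were well above background on at least 12 arrays. The part of the array medians in the values of dim probes was not tested. All 3 calls were lost with the scan day block. KLRB1, the gene of the lectin-like receptor CD161, was 0.0751, 0.206, 0.192 and 0.127 in NP18 and 0.595, 0.761, 1.02 and 0.935 in P18, without overlap, a difference of 2.54 (SE 0.42, limma adjusted p = 0.00231). KLRD1, which encodes CD94 of the inhibitory and activating NKG2 receptors, was 0.115, 0.273, 0.129 and 0.0603 in NP18 and 0.317, 0.392, 0.458 and 0.332 in P18, a difference of 1.57 (SE 0.43, adjusted p = 0.0425). FCGR3A, the Fc receptor CD16 of NK cells and also of macrophages, was 0.110 to 0.147 in NP18 and 0.559 to 1.05 in P18, a difference of 2.60 (SE 0.34, adjusted p = 0.000343).

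KLRB1 was the one gene of this list called for the difference between the days (2.43, SE 0.61, limma adjusted p = 0.0485). That call was lost under 20 of 27 alternatives, and the day 18 call of KLRD1 under 15 of 23, which included the omission of any single array of day 18 but NP18 replicate 2. SLAMF1 lost its call under 10 of 23 alternatives, among them quantile normalization and the omission of NP18 replicate 3, P18 replicate 2 or P18 replicate 3. On day 18, CD69 lost its call under 2 of 24, KLRB1 under 1 of 23 and FCGR3A under 1 of 24, the scan day block in each case and for CD69 also the methods' t-test with adjustment.

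The granule genes nearest in role to GNLY and GZMB were not called between P18 and NP18. PRF1, which encodes perforin, was 0.139 to 0.201 in NP18 and 0.117 to 0.257 in P18 (difference 0.17, SE 0.65, limma adjusted p = 0.904), and 0.130 to 1.33 in NP15 against 0.274 to 0.855 in P15. NKG7, a granule membrane protein gene, had no spot well above background on day 18. SRGN, the gene of the granule proteoglycan serglycin, differed by 0.93 on day 18 (SE 0.38, adjusted p = 0.154) and rose from P15 to P18 by 1.31 (SE 0.41, adjusted p = 0.0431).

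Other members of the NK cell list differed less or fell short of the test. XCL1, a chemokine of NK and cytotoxic T cells, had an adjusted p of 0.0407 on day 18 by limma with a difference of 0.87, below the 2-fold limit. CCL5, a chemokine made by activated lymphocytes, differed by 1.41 (SE 0.43, adjusted p = 0.0626). The receptor genes NCR3 and TYROBP differed by 0.64 (SE 0.30, adjusted p = 0.206) and 0.66 (SE 0.39, adjusted p = 0.330).

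On day 15, limma called 0 of these 17 genes, with 2 at an unadjusted p below 0.05 and 0 by the methods' t-test, and between NP18 and NP15 it called 0, with 5 at an unadjusted p below 0.05 and 1 by the methods' t-test without adjustment. Of all tested probes, 14.9% on day 15 and 29.3% between NP18 and NP15 passed the unadjusted limit by limma. Between P18 and P15, 5 of 17 were called higher, with 7.58% of all tested probes called higher there. They were KLRB1 (2.81, SE 0.45, adjusted p = 0.00199), FCGR3A (1.86, SE 0.37, adjusted p = 0.00593), SRGN, KIR2DL1 and KIR3DL1, and all 5 calls were lost with the scan day block. KIR2DL1, a gene of the killer immunoglobulin-like receptors, was higher in P18 (adjusted p = 0.00157), with 0 of 3 P15 and 2 of 4 P18 spots well above background. Its fold was 4.05 with P15 spots raised to at least the lowest signal so marked on their array. For the same reason as for SLAMF1, that is not a lower limit. KIR3DL1 had no P18 spot well above background, so its call (adjusted p = 0.0272) gives no fold. The call of SRGN was lost under 12 of 23 alternatives, among them the omission of any P15 array or of P18 replicate 2 or 3, and that of KIR3DL1 under 9 of 22, among them the omission of any P15 array or of P18 replicate 2.

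**Figure D5:**
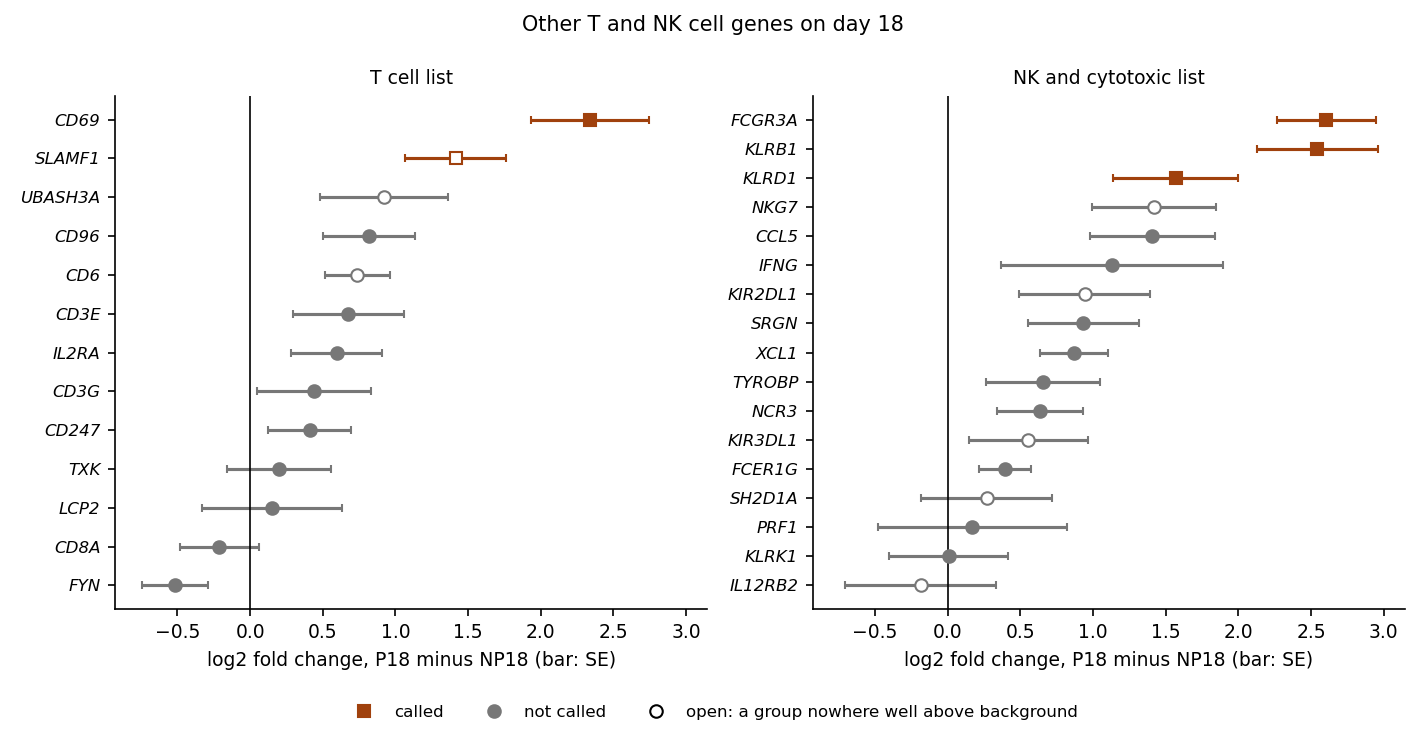
Log2 difference of P18 from NP18 with its SE from limma (x) for the tested genes (y) of the T cell list and of the NK cell and cytotoxic list, with called genes as brown squares and open symbols where P18 or NP18 was nowhere well above background. CD69, SLAMF1, FCGR3A, KLRB1 and KLRD1 are the called genes, and CD3E, CD8A and PRF1 lie closer to 0.

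Transcripts of other cells moved on day 18 as well. The summed level of 8 tested trophoblast markers was 0.133 to 0.270 in NP18, and 0.658, 160, 101 and 730 in P18 replicates 1 to 4, and 8 of 8 were called higher. Trophoblast markers were no higher in P15 (0.114 to 0.205) than in NP15 (0.150 to 0.257). The summed level of 11 macrophage and myeloid markers was 30.9 to 56.5 in NP18 and 120 to 247 in P18, without overlap, with 2 of 11 called higher (C1QB and C1QC) and 7 of 11 between P18 and P15. That of 4 smooth muscle markers was 40.6 to 209 and 11.8 to 37.8, with 3 of 4 called lower. Of all tested probes, 5.75% were called in either direction between P18 and NP18, with 3.65% called higher. Between P18 and P15, 7.58% were called higher. FCGR3A is shared with myeloid cells.

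In P18 replicate 3, the cow with the GZMB signal of 125, the summed myeloid level (247) and the summed level of the NK cell list (63.3) were the highest of all 15 arrays, while its GNLY signal of 1.1 was the third of 4 in its group. A sum adds signals of different probes and follows the brightest, such as CCL5 with 15.9 of the 63.3. This array also had the lowest share of probes well above background (65.6%) and the lowest array median of P18 (407). Within P18, GNLY was highest in replicates 1 and 2, whose trophoblast sums were 0.658 and 160. The part of trophoblast, myeloid or muscle RNA in any of these values was not tested.

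The genes whose log2 signals most resembled each member over the arrays were taken from 5394 probes with a symbol that were well above background on at least 12 arrays. For GNLY these were AGTRAP (Pearson 0.83), BOLA-DQB1, an MHC class II gene (0.81), and PAQR6 (0.81), and the correlations within groups were 0.70, 0.71 and 0.60. For GZMB they were PTGS1, the gene of prostaglandin synthase 1 (0.90, 0.85 within groups), the gene of spleen trypsin inhibitor, LOC404103 (0.84 and 0.86), and ACSL4 (0.82 and 0.84). Neither set held a gene of the T or NK cell lists.

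For CD2 the closest were OXT, FIS1 and YIF1A (0.83, 0.82 and 0.82), but the Spearman coefficient for OXT was 0.58. For CD3D they were IL18, a cytokine that stimulates lymphocytes (0.81), MED30 and AMD1 (0.77 each). For CD5 they were ARHGEF39, NADSYN1 and the interferon-stimulated gene IFIT3 (0.80, 0.79 and 0.78), for LCK CCDC28B, SUV39H1 and CALHM2 (0.85, 0.82 and 0.81), and for NCR1 CERT1, NSMCE3 and VSIG4 (0.82, 0.82 and 0.81 over 14 arrays). These values describe 15 arrays that share groups and scan days, they are the highest of all candidates, and those of CD3D, CD5, LCK and NCR1 include many spots near background.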

How the data were processed

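Scanner files of 15 one-color arrays were used, whose intensities the authors deposited as processed signals of Agilent Feature Extraction (9.5 per the submitters' processing notes). The table of log2 values that the authors deposited equals the log2 signal minus a constant of each array close to its 75th percentile, and served as an alternative. Here signals were expressed relative to the array median on the log2 scale, without controls and spots marked as outliers. Probes well above background on at least 3 arrays were tested (13164, with 2044 not tested). Limma (3.58.1, R 4.3.3) estimated the 4 group means in a single fit of the 15 arrays. Single genes were also compared by exact two-sided permutation tests over all arrangements of the arrays (Python 3.11.15). SciPy 1.17.1 gave the t quantiles of the intervals and the Spearman coefficients. On simulated data for P18 against NP18, 61.5% of changes of 1.5 on the log2 scale and 86% of changes of 2.5 were recovered. The changed probes were drawn at random from the tested probes, whose median SD within groups was 0.44. GNLY and GZMB had SDs of 1.44 and 1.15, so these shares do not apply to them.

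Probes were named from the files and from a RefSeq gene table (7135 of 15208 had a symbol). Named were all 7 members, the called genes of the related lists and those lists' defining genes, and the 3 genes most like each member. The members and lists were chosen with earlier results of these data known. The methods describe 4 cows per stage, and 3 arrays of P15 were analyzed here. Same-numbered cows did not vary together (correlations of deviations -0.259 to 0.304). Alternatives covered scaling, background correction, filters, array weights, slide and scan day as blocks, the replicate block, the methods' t-test and the omission of each array. The number of arrays limits the precision.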

Additional observations from a re-analysis of the deposited data

Results flagged for a closer look

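On the scale of the signals, in 3 of 21 groups of 4 arrays, 1 cow stood apart from the others of its group by more than Dixon's 95% limit for the gap over the range (0.829), which chance gives in about 5% of groups. GZMB was 125 in P18 replicate 3, with the next value at 25.52 (gap over range 0.856). CD2 was 0.5193 in NP18 replicate 4, with the next at 0.1548 (0.878). CD3D was 0.1369 in NP15 replicate 1, with the next at 0.04079 (0.893). On the log2 scale, a scale added once the values were known, 0 of the 21 groups passed the limit, and these 3 gaps were 0.597, 0.754 and 0.785 of the range. The signals are in array medians, and both GZMB probes, which share a sequence, had their highest value in the same cow (125 and 117).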

How the results depend on the processing

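The number of called member probes was 0 in every comparison, and the replicate block, which paired same-numbered cows, also called 0. On day 18 the methods' t-test without adjustment counted 2 (both GNLY). For the difference between the days, normexp background correction called 3 (both GNLY and NCR1), and leaving out 1 array called 0 to 2. Between NP18 and NP15, quantile normalization called 1 (NCR1), normexp 1 (GNLY) and leaving out 1 array 0 to 3. Between P18 and P15, array weights called 4 (GNLY and GZMB) and leaving out 1 array 0 to 2. GNLY and GZMB kept their direction in all comparisons and alternatives. Signs turned for differences near 0 or of dim probes. For P15 minus NP15, NCR1 was -0.091 with quantile normalization and -0.54 with normexp (-0.12 to 0.55 with 1 array left out), CD3D -0.30 with normexp, and CD5 -0.28 with normexp and -0.047 with array weights (-0.058 to 0.29). For P18 minus NP18, CD2 was -0.059 with 75th percentile scaling and -0.060 with the deposited table (-0.26 to 0.51), CD3D -0.015 with quantile normalization (-0.026 to 0.22) and LCK -0.41 with it. For the difference between the days, CD3D was 0.68 with normexp (-0.66 to 0.081) and LCK -0.037 with quantile normalization. For NP18 minus NP15, NCR1 was 0.023 with array weights and CD3D -0.17 with normexp. For P18 minus P15, NCR1 was 0.47 with normexp, 0.056 with array weights and 0.22 with the replicate block (-0.26 to 0.17), CD2 -0.22 with 75th percentile scaling and with the deposited table and -0.12 with the replicate block (-0.034 to 0.26), and LCK 0.26 with normexp (-0.22 to 0.056). The cause was not tested. With scan day as a random block, 0 member probes were called, in a fit that cannot separate scan day from group. Background limits NCR1, LCK, CD5 and CD3D on day 18.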

Other observations

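Genes that attract or sustain T and NK cells were also on the array, with 16 of 24 tested. On day 18, limma called 2 higher in P18 and 0 lower, with 3.65% of all tested probes called higher, and 0 of the 16 with scan day as a random block. CXCL10, a chemokine that interferon induces and that acts on T and NK cells, was 6.32 to 7.45 in NP18 and 42.3 to 184 in P18, a log2 difference of 3.62 (adjusted p = 0.000467). CXCR4, a chemokine receptor of lymphocytes and many other cells, was 3.61, 1.84, 1.83 and 0.725 in NP18 and 4.41, 6.23, 7.30 and 5.47 in P18, a difference of 1.74 (adjusted p = 0.0122), a call also lost with the 2 groups fitted alone and with adjustment of the methods' t-test. CXCL16 rose from day 15 to day 18 in both cyclic cows (1.35, adjusted p = 0.0103) and pregnant cows (1.27, adjusted p = 0.0145). The first call was lost under 3 of 24 alternatives (2 groups alone, scan day block, the methods' t-test with adjustment) and the second under 6 of 23, among them the scan day block and the omission of P15 replicate 1 or 3.

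IL15, a cytokine on which NK cells depend, rose from P15 to P18 by 1.65 (limma adjusted p = 0.0466), a call lost under 12 of 22 alternatives, among them the omission of any 1 of the 7 arrays compared. CCL4, a chemokine of activated lymphocytes and macrophages, was called for the difference between the days (1.24, adjusted p = 0.0351), a call lost under 14 of 28 alternatives. CXCR3, the receptor of CXCL10 on T and NK cells, had no spot well above background on day 18, so its call between P18 and P15 gives no fold. That call was lost under 2 of 22 alternatives, normexp and the scan day block. Between P18 and P15, limma called 4 of 16 genes higher, namely CXCL10, CXCL16, IL15 and CXCR3, with 7.58% of all tested probes called higher. All 4 calls were lost with the scan day block.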
